A study of Mus musculus with 19 samples.

Results

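The miR-7 and miR-375 microRNAs (miRNAs) were followed across 3 tissues of 2 mouse strains. The array carried 7 mature strands whose names have the stem miR-7a, miR-7b or miR-375, of 1079 mouse miRNAs: mmu-miR-7a-5p, mmu-miR-7a-1-3p, mmu-miR-7a-2-3p, mmu-miR-7b-5p, mmu-miR-7b-3p, mmu-miR-375-3p and mmu-miR-375-5p. The names were picked with measured values known: they were chosen by their strain difference in the nucleus accumbens, so that difference is given as a description, without a test. High-active mice were inbred C57L/J and low-active mice inbred C3H/HeJ, all male, 9 weeks old at death, untreated, and kept singly with a running wheel that was locked. The study asked whether miRNA expression differed between these strains, which run different distances by nature, in the nucleus accumbens (a reward region of the ventral forebrain), the soleus (a slow hindlimb muscle) and the extensor digitorum longus (EDL, a fast one). High-active mice gave 4 nucleus accumbens, 4 soleus and 2 EDL arrays and low-active mice 3, 2 and 4, from 8 mice with at most 1 array per tissue and mouse. The groups differ in the whole inbred genome, so activity and other strain differences cannot be told apart.

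miRNAs are cut from a hairpin precursor whose 2 arms give the 5p and the 3p strand. One strand, the guide, usually stays in the silencing complex and the other, the passenger, is mostly degraded. miR-7 is a miRNA of neuroendocrine cells and of brain, where its 5p arm is the guide. In brain the circular RNA Cdr1as binds it, miR-671 cuts Cdr1as, and the long RNA Cyrano drives miR-7 decay. miR-375 is best known from pancreatic islets and the pituitary, with its 3p arm as the guide.

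The mature sequences are shown because they fix which strands can be told apart, and by which seed they would pair with targets. They are written 5′ to 3′ from RefSeq (mouse build GRCm38.p6), with the seed, bases 2 to 8, in capitals. The guide strands were:
mmu-miR-7a-5p: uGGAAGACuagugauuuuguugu
mmu-miR-7b-5p: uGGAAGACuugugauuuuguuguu
The opposite strands were:
mmu-miR-7a-1-3p: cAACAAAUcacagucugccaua
mmu-miR-7a-2-3p: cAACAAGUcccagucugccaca
mmu-miR-7b-3p: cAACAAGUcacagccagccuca
mmu-miR-375-5p: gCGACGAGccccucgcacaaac
The seed GGAAGAC was shared by miR-7a-5p and miR-7b-5p, 2 of the 1679 mature miRNAs of the reference table. These guides differed only by A10U, counted from 1 at the 5′ end with the miR-7a base first, and by 1 further base at the 3′ end of miR-7b-5p. The probes' own sequences were not used here, so whether the miR-7a-5p and miR-7b-5p probes each also capture the other strand was not tested. miR-7a-2-3p and miR-7b-3p shared the seed AACAAGU. miR-7a-1-3p differed from miR-7a-2-3p by G7A, C10A and C21U (miR-7a-2-3p base first), the first of them inside the seed.

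miR-7a-5p is made by 2 genes and the 3p arms tell them apart, as the hairpins show with the mature arms in capitals:
Mir7-1: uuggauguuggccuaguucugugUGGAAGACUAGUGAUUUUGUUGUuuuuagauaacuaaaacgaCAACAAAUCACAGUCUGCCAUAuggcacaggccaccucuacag
Mir7-2: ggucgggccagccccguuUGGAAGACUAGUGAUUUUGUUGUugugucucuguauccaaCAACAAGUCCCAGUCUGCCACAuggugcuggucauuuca
Mir7b: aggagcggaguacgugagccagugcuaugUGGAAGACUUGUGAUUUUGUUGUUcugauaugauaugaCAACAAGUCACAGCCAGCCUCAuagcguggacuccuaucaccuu
Mir7-1 lies at chr13:58392779-58392886 on the minus strand, inside the protein-coding gene Hnrnpk, which encodes an RNA-binding protein present in most cells. Mir7-2 lies at chr7:78888277-78888373 on the plus strand, in no annotated gene and 7554 bases from the nearest coding gene, Aen. Mir7b lies at chr17:56242988-56243098 on the plus strand, in no annotated gene and 13695 bases from Fem1a. Mir375 lies at chr1:74900658-74900721 on the minus strand, in no annotated gene and 1350 bases from Cfap65. Copies of miR-7a-5p from Mir7-1 and from Mir7-2 cannot be told apart on an array, while miR-7a-1-3p comes from Mir7-1 alone and miR-7a-2-3p from Mir7-2 alone.

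Signals are log2 of the array's fluorescence intensity after each array was scaled, and a miRNA was called detected on an array where more than 50% of a probe's spots were well above background. A lower limit, the floor, replaced dimmer values. Detected mouse miRNAs numbered 347 to 388 on the nucleus accumbens arrays, 263 to 341 on the soleus arrays and 237 to 332 on the EDL arrays, the fewest on the EDL array of low-active mouse 195. In the nucleus accumbens the neuronal marker miR-124-3p lay between 14.72 and 15.12 on every array. Epithelial miR-200a-3p was detected on 4 of 4 high-active and 1 of 3 low-active arrays and spread widely within each strain: it lay between 11.06 and 13.08 in high-active mice 223, 225 and 227 and low-active mouse 197, at 6.06 in high-active mouse 224, and at the floor of 4.60 in low-active mice 194 and 195. Muscle miR-133a-3p stood at 9.34 in low-active mouse 197 and between 6.77 and 7.31 on the other nucleus accumbens arrays.

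Every strand that was detected had its highest signal in the nucleus accumbens. Of the 7 strands, 6 were detected in the nucleus accumbens, 4 of them on all 7 of its arrays, and only miR-7a-5p and miR-7a-1-3p were detected in muscle. With all 19 arrays scaled together, 5 strands were higher in the nucleus accumbens than in soleus, and the same number higher than in EDL, of 6 that could be tested (limma, Benjamini-Hochberg adjusted p under 0.05). Over all 461 miRNAs tested, 49.5% were called higher against soleus and 49.9% against EDL, with median log2 differences of 0.24 and 0.26. miR-7a-2-3p, miR-7b-5p, miR-7b-3p and miR-375-3p passed the filter on detection only through the nucleus accumbens and could differ only upward, so the count of 5 is no support for them as a group. As these are bulk tissues, fewer cells of a type and less RNA per cell cannot be told apart, and the number of arrays limits the precision.

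The guide miR-7a-5p had a median signal of 10.98 on the 7 nucleus accumbens arrays, with a range from 9.77 to 11.99. In soleus its signal ran from 4.41 to 4.89 with a median of 4.76, and in EDL from 4.53 to 5.14 with a median of 5.06. No muscle array came within 4 log2 units of the dimmest nucleus accumbens array. It was detected on 3 of 6 soleus and 4 of 6 EDL arrays, each time by 1 of its 2 probes. The difference was 6.43 ± 0.18 (SE) on the log2 scale against soleus (limma adjusted p = 8.05e-15) and 6.23 ± 0.18 against EDL (limma adjusted p = 1.39e-14). With the muscle signal this near background, the size of the difference depended on how background was treated: with normexp correction, which adds an offset of 50 intensity units, it was 4.61 and 4.43.

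The guide miR-7b-5p had no detected signal in muscle. On the nucleus accumbens arrays it ran from 8.58 to 10.33 with a median of 9.41, and on all 12 muscle arrays it sat at the floor of 4.41. It was at least 33.1-fold higher than in soleus and at least 30.7-fold higher than in EDL. These are bounds on the intensities as scaled, since the muscle level was not well above background, and with the normexp offset the log2 differences were 3.21 and 3.12. The miR-7b-5p median, less a fall as large as that of miR-7a-5p, would also lie under the floor. These values therefore cannot tell whether the 2 guides differ in tissue pattern. No p is given for a strand detected only in the nucleus accumbens, since its direction was set by the filter.

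Both passenger strands of the 2 miR-7a genes were detected in the nucleus accumbens, and only miR-7a-1-3p in muscle. miR-7a-1-3p, from the Hnrnpk intron, was present in all 3 tissues: it ran from 7.86 to 8.18 in the nucleus accumbens with a median of 7.89, from 5.36 to 5.89 in soleus with a median of 5.45, and from 5.31 to 6.58 in EDL with a median of 6.37. It was detected on 7 of 7, 6 of 6 and 5 of 6 arrays, the exception being the EDL of mouse 195. The nucleus accumbens was higher by 2.37 ± 0.14 (SE) against soleus, or 5.17-fold (limma adjusted p = 1.20e-10), and by 1.68 ± 0.14 against EDL, or 3.20-fold (limma adjusted p = 1.23e-08), with log2 differences of 1.41 and 0.99 under the normexp offset. miR-7a-2-3p was detected on all 7 nucleus accumbens arrays, from 5.09 to 7.12 with a median of 6.04, and on no muscle array. It was at least 3.61-fold higher than in soleus and at least 3.35-fold higher than in EDL, with log2 differences of 0.75 and 0.68 under the normexp offset. The median of miR-7a-2-3p, less a fall as large as that of miR-7a-1-3p, would lie under the floor of 4.41. Within single mice, with muscle at the floor, miR-7a-2-3p differed from muscle by 2.72 and 2.65 in low-active mice 194 and 197. For miR-7a-1-3p the difference there was 1.95 and 1.75, so on this scale miR-7a-2-3p fell further in those mice. In every other mouse the floor left the miR-7a-2-3p difference below that of miR-7a-1-3p. The normexp differences were also smaller for miR-7a-2-3p. Whether the 2 passengers differ in tissue pattern across the mice therefore cannot be told.

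The remaining 3 strands were near or under background. miR-7b-3p was detected on 3 of 7 nucleus accumbens arrays, with a highest signal of 4.88, and on no muscle array. miR-375-3p was detected on 5 of 7 nucleus accumbens arrays, with a highest signal of 6.19, and on no muscle array. Its difference from the muscle floor was 0.67 against soleus and 0.68 against EDL, and in the high-active mice alone 0.10 and 0.10. No fold is given, as every muscle array and 2 nucleus accumbens arrays were at the floor. miR-375-5p was detected on none of the 19 arrays.

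**Figure D1:**
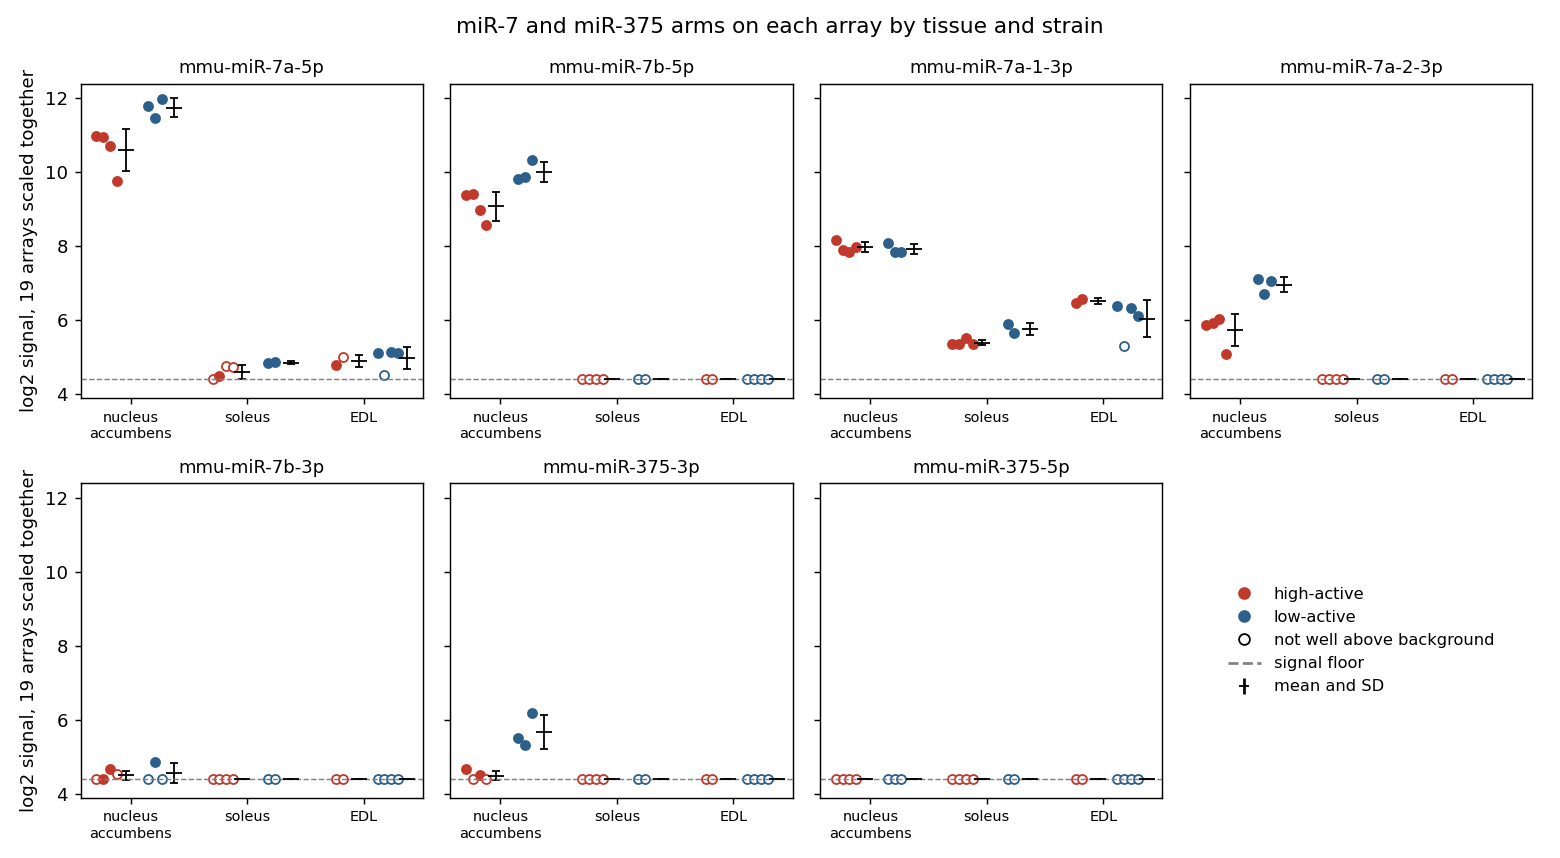
Log2 signal of each strand (vertical axis, 19 arrays scaled together) by array and tissue, in high-active mice (red) and low-active mice (blue). Open points were not well above background, bars are the mean and SD of a group, and the dashed line is the floor at 4.41. Only miR-7a-5p and miR-7a-1-3p have filled points in muscle, and miR-375-5p has none anywhere.

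Each mouse with a nucleus accumbens array also gave 1 or 2 muscle arrays, so brain and muscle were set against each other within the animal. For miR-7a-5p the nucleus accumbens exceeded the mean of the same mouse's muscle arrays by 4.88 to 6.88 log2 units over 7 mice. For miR-7a-1-3p the same difference was 1.75 to 2.81. The guide's difference was the greater in 7 of 7 mice, by 2.86 to 5.13. In mice 223 and 227 miR-7a-5p was detected on no muscle array, so their differences of 6.58 and 4.88 are set by signal not well above background. In the other 5 mice the guide's difference exceeded that of miR-7a-1-3p by 3.91 to 5.13. Of these, mice 195 and 225 had 1 of 2 muscle arrays without detected miR-7a-5p, the EDL of mouse 195 and the soleus of mouse 225. On that EDL array miR-7a-1-3p was not detected either, so these differences too rest in part on signal not well above background. Levels of the arms themselves were not compared, since each probe binds with its own strength. The order of the 6 group means was the same at the top for both guides, miR-375-3p and miR-7a-2-3p, with low-active nucleus accumbens first and high-active nucleus accumbens next. Below them the miR-7a-5p means ran from 4.98 in low-active EDL through 4.91 in high-active EDL and 4.86 in low-active soleus to 4.61 in high-active soleus. Neighbours in that lower order overlapped, save the last pair. For miR-7a-1-3p the order was high-active nucleus accumbens (7.98), low-active nucleus accumbens (7.94), high-active EDL (6.52), low-active EDL (6.04), low-active soleus (5.78) and high-active soleus (5.40). The nucleus accumbens groups overlapped, as did low-active EDL and low-active soleus, and no other neighbours did.

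**Figure D2:**
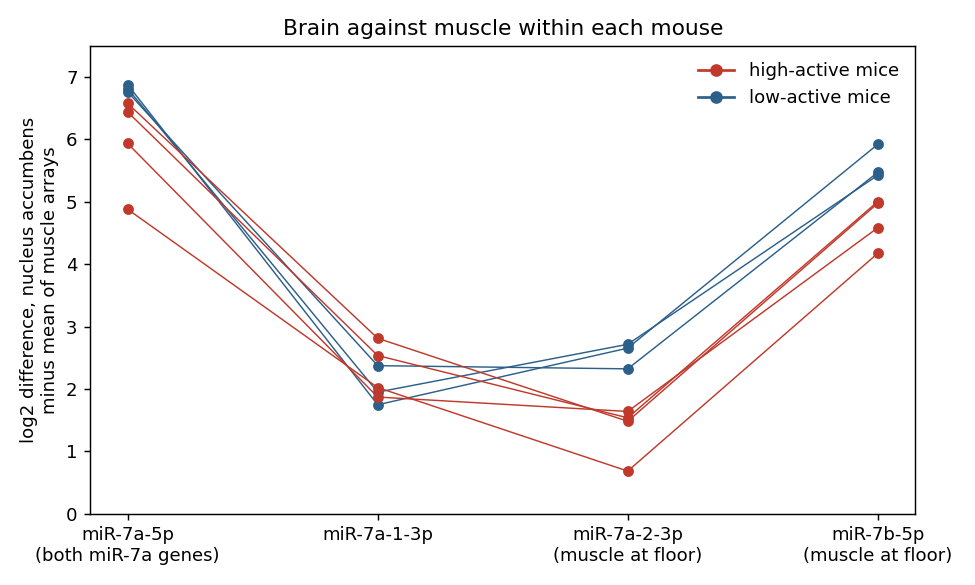
Log2 signal in the nucleus accumbens minus the mean of the same mouse's muscle arrays (vertical axis) for both guides and both miR-7a passengers, with 1 line per mouse, high-active in red and low-active in blue. Differences for miR-7a-2-3p and miR-7b-5p are set by the floor in muscle, and those of miR-7a-5p in mice 223 and 227 by muscle signal not well above background. The miR-7a-5p difference of 4.88 to 6.88 lies above the miR-7a-1-3p difference of 1.75 to 2.81 in each of the 7 mice.

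Between strains, 4 of the 6 strands tested in the nucleus accumbens were lower on every high-active than on every low-active array. These were miR-7a-5p, miR-7a-2-3p, miR-7b-5p and the islet miRNA miR-375-3p, and miR-7a-1-3p and miR-7b-3p overlapped. The strands were picked for this contrast, so nothing is read from that count. Over all 386 miRNAs tested in this tissue, 14.2% had every high-active array below every low-active one and 6.22% passed the test in either direction (limma, adjusted p under 0.05). The median over all of them was -0.10, and 64% lay lower in the high-active mice. The values here are on a scale set over the 7 nucleus accumbens arrays, with a floor of 4.60.

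miR-7a-5p stood at 11.10, 10.05, 11.10 and 11.04 in high-active mice 224, 227, 223 and 225. In low-active mice 197, 195 and 194 it stood at 12.15, 11.74 and 11.91. Mouse 227 lay well under the other high-active mice, and even the highest high-active array was 0.64 log2 units under the lowest low-active one. The group means were 10.82 ± 0.51 (SD, n = 4) and 11.93 ± 0.20 (SD, n = 3), 2.16-fold higher in the low-active mice. Without mouse 227 the log2 difference of -1.11 became -0.82.

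miR-7b-5p had signals of 9.57, 8.87, 9.49 and 9.31 in the high-active mice, in the same order, and of 10.49, 10.15 and 9.95 in the low-active mice. The same mice were at the extremes, 227 lowest and 197 highest. The means were 9.31 ± 0.31 (SD, n = 4) and 10.19 ± 0.27 (SD, n = 3), a 1.85-fold difference.

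The passengers of the 2 miR-7a genes gave different strain values. miR-7a-2-3p gave 6.10, 5.37, 6.00 and 6.36 in the high-active mice and 7.22, 6.998 and 7.24 in the low-active mice, with means of 5.96 ± 0.42 (SD, n = 4) and 7.15 ± 0.13 (SD, n = 3), 2.29-fold apart. miR-7a-1-3p gave 8.05, 8.28, 8.29 and 8.18 against 8.02, 8.13 and 8.21, with means of 8.20 ± 0.11 (SD, n = 4) and 8.12 ± 0.10 (SD, n = 3). The Mir7-2 passenger thus lay lower in the high-active mice and the Mir7-1 passenger overlapped fully. A ratio within an array is free of the scaling between arrays: the log2 ratio of miR-7a-5p to miR-7a-1-3p was 1.77 to 3.06 in high-active and 3.61 to 4.13 in low-active mice, without overlap. The ratio of miR-7a-5p to miR-7a-2-3p was 4.68 to 5.10 against 4.67 to 4.93, and that of miR-7a-5p to miR-7b-5p 1.19 to 1.73 against 1.60 to 1.96, both with overlap. Only differences between arrays in such a ratio can be read, not its height. They describe unequal change of the strands on these arrays, not which one moved. As the names were chosen by this strain contrast, the lack of overlap in a ratio is no test.

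miR-375-3p was close to background. High-active mice 224, 227, 223 and 225 had 4.60, 4.69, 4.79 and 4.85, and low-active mice 197, 195 and 194 had 6.35, 5.59 and 5.63. It was detected on 2 of 4 high-active arrays (mice 223 and 225) and on 3 of 3 low-active ones. On the brightest array, that of mouse 197, all 39 of the spots kept for miR-375-3p were well above background, against 5 of 38 on that of mouse 224. The means were 4.73 ± 0.11 (SD, n = 4) and 5.86 ± 0.43 (SD, n = 3). No fold is given because the high-active level was largely at background: the log2 difference of -1.13 was -0.54 with normexp correction and -1.83 in the authors' deposited values. miR-7b-3p, detected in mice 224, 225 and 195, had 4.60, 4.84, 4.60 and 4.99 against 4.60, 5.15 and 4.60.

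**Figure D3:**
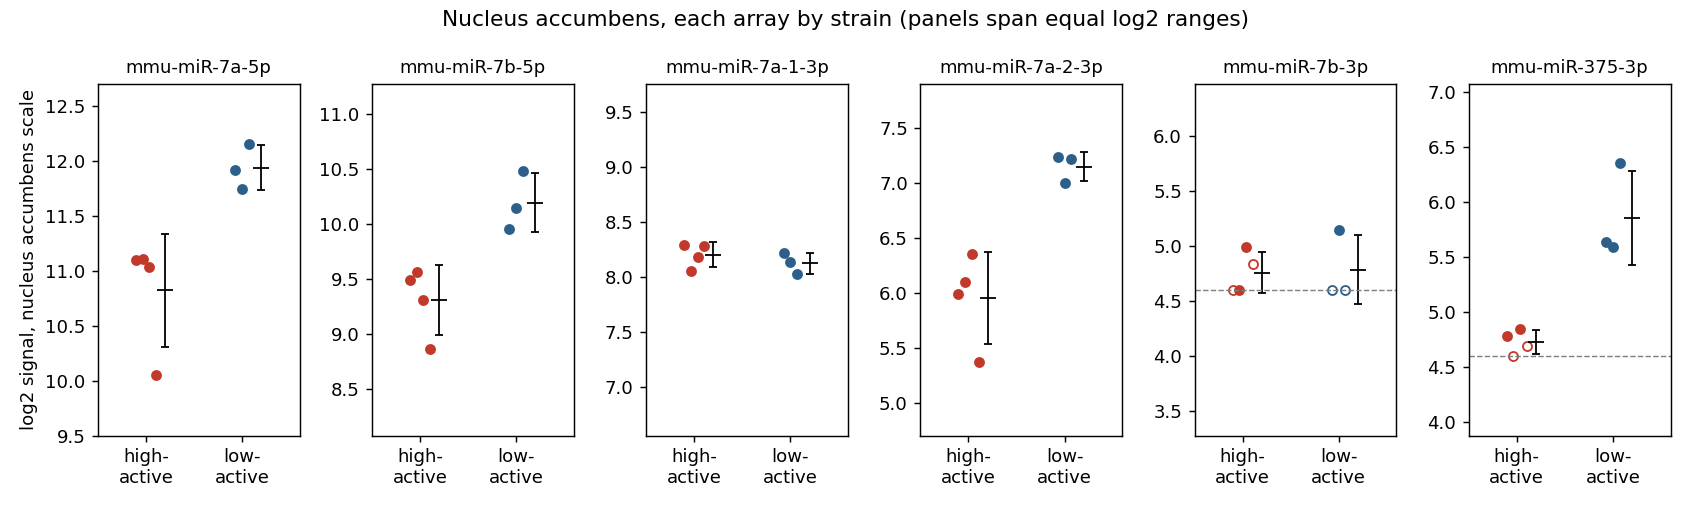
Log2 signal of 6 strands in the nucleus accumbens (vertical axis, arrays of this tissue scaled together) of high-active (n = 4, red) and low-active (n = 3, blue) mice, with mean and SD as bars, open points where not well above background, and the floor of 4.60 dashed. Each panel spans the same number of log2 units. Both guides, miR-375-3p and miR-7a-2-3p do not overlap between strains, and miR-7a-1-3p and miR-7b-3p do.

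In the nucleus accumbens the 2 probes of miR-7a-5p gave -1.11 and -1.08 and those of miR-7a-2-3p -1.19 and -1.18. Those of miR-7b-5p gave -0.89 and -0.88, of miR-375-3p -1.13 and -0.60, and of miR-7a-1-3p 0.08 and 0.12. The second miR-375-3p probe was detected on only 2 of 7 arrays, so its value was largely set by the floor. For miR-7b-3p 1 probe gave -0.03 and the other was at the floor on every array. Both probes read the same RNA and the strands were picked on this contrast, so a shared direction is no support. For this tissue 2 of the 3 array slides held both strains. Within slide 2 (mice 195 and 225) miR-7a-5p differed by -0.71 and miR-375-3p by -0.75, and within slide 3 (mouse 197 against 223, 224 and 227) by -1.40 and -1.66.

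No other miRNA listed for the same cells or circuits passed the strain test in the nucleus accumbens. Of the 3 listed for the miR-7 network in brain, 2 were tested and none passed: miR-671-5p, which cuts Cdr1as, had a difference of -0.31 (limma adjusted p = 0.449) and miR-153-3p, like miR-7 a brain regulator of alpha-synuclein, one of 0.03 (limma adjusted p = 0.954), while miR-671-3p was not detected. Of 4 further islet and neuroendocrine miRNAs 3 were tested and none passed, with a median of -0.02, including miR-132-3p (0.19) and miR-127-3p (-0.12). None of 3 pancreatic acinar miRNAs was detected. Of 5 neuronal miRNAs none passed, with a median of 0.16, miR-128-3p and miR-124-3p differing by 0.18 and 0.16, miR-9-5p by 0.26, and miR-138-5p and miR-137-3p by -0.10 and -0.26.

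Markers of other cells were measured beside them, and their part in the miR-7 and miR-375 values was not tested. Of 2 red cell miRNAs tested none passed, with miR-451a at -1.34 (limma adjusted p = 0.154), miR-144-5p at -0.46 and a summed level of 10.99 to 12.32 in high-active and 12.13 to 13.74 in low-active mice. Of 3 skeletal muscle miRNAs tested none passed (miR-133b-3p -0.83, miR-1a-3p -0.46), with a summed level of 8.89 to 9.27 against 8.87 to 11.18, the highest in mouse 197, which also had the most miR-7a-5p, miR-7b-5p and miR-375-3p. Of 6 epithelial miRNAs tested none passed (miR-200a-3p 4.14, miR-200b-3p 3.95), with a median of 3.23. Only miR-203-3p of these, detected on all 7 arrays, went the other way, at -0.19, and miR-205-5p was not detected. The epithelial summed level was 8.06 to 14.41 against 7.55 to 12.60. Of the miR-183 cluster of sensory and pituitary cells none of 3 passed (miR-96-5p 2.95, miR-182-5p 2.63), with 6.19 to 12.25 against 6.19 to 10.58. By mouse, miR-183-5p of that cluster was at the floor in mice 194, 195 and 224, where miR-375-3p stood at 5.63, 5.59 and 4.60. It was 9.95, 9.91 and 9.62 in mice 227, 223 and 225, where miR-375-3p stood at 4.69, 4.79 and 4.85, and 8.59 in mouse 197, where miR-375-3p was highest at 6.35. Of 2 oligodendrocyte miRNAs 1 was higher in the high-active mice, miR-338-3p by 0.64 (limma adjusted p = 0.0376), and miR-219-5p differed by 0.06, with a summed level of 11.41 to 11.85 against 10.75 to 11.52. None of 3 leukocyte miRNAs (miR-150-5p 0.22, miR-223-3p -0.10, miR-142-3p -0.42, summed 9.97 to 10.45 against 9.88 to 10.18) or 2 choroid plexus miRNAs (miR-204-5p 0.09, miR-211-5p 0.40, summed 11.61 to 12.17 against 11.48 to 12.44) passed.

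In muscle, the strains could be tested for the 2 strands detected there, and neither passed. In soleus 1.48% of 337 miRNAs and in EDL 0.31% of 323 passed the test in either direction. miR-7a-5p in soleus was 4.60, 4.60, 4.81 and 4.66 in high-active mice 223, 224, 227 and 225 and 4.83 and 4.72 in low-active mice 194 and 195, which overlapped. Its difference was -0.11 (95% interval -0.34 to 0.12, limma adjusted p = 0.590). In EDL it was 4.64 and 4.79 in high-active mice 225 and 227 and 5.07, 4.90, 4.80 and 4.42 in low-active mice 197, 196, 194 and 195, again with overlap. Its difference there was -0.08 (95% interval -0.64 to 0.48, limma adjusted p = 0.939).

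miR-7a-1-3p had strain differences of opposite sign in the 2 muscles and passed in neither. In soleus it was 5.34, 5.31, 5.43 and 5.41 in high-active and 5.89 and 5.49 in low-active mice, with no overlap, and a difference of -0.32 (95% interval -0.64 to 0.01, limma adjusted p = 0.278). In EDL it was 6.31 and 6.35 in high-active and 6.08, 6.09, 6.08 and 5.19 in low-active mice, with no overlap, and a difference of 0.47 (95% interval -0.26 to 1.20, limma adjusted p = 0.719). The lowest of these, mouse 195, was the dimmest array and the strand was not well above background there. The strain difference in EDL minus that in soleus was 0.87 ± 0.30 (SE), which did not pass across miRNAs (limma adjusted p = 0.395, 461 tested).

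The miRNAs with the profile most like a strand's, after each was centred on its own mean, were named from 312 or 313 candidates detected on all 7 nucleus accumbens arrays. Over the 19 arrays miR-7a-5p was nearest to miR-551b-3p, miR-376a-3p and the neuronal miR-137-3p, with root mean square differences of 0.474, 0.484 and 0.507 log2 units against a median of 2.66 over the candidates. miR-7b-5p was nearest to miR-598-3p, miR-384-5p and miR-344b-3p (0.236, 0.259 and 0.264, median 2.09), and miR-375-3p to miR-134-5p, miR-491-5p and miR-532-3p (0.253, 0.285 and 0.320, median 0.943). Over the 7 nucleus accumbens arrays the nearest to miR-7a-5p were its Mir7-2 partner miR-7a-2-3p at 0.165, miR-7b-5p at 0.216 and miR-467b-5p at 0.311, with a median of 0.700. miR-7b-5p was nearest to miR-7a-5p at 0.216, miR-326-3p at 0.250 and miR-700-3p at 0.270 (median 0.560). miR-375-3p was nearest to miR-669f-3p at 0.209, miR-467b-5p at 0.275 and miR-7b-5p at 0.276 (median 0.630). These are descriptions over arrays that share mice and a scale. The strands were chosen by their strain difference on the 7 nucleus accumbens arrays. That choice favours nearness there to each other and to other miRNAs that differ between strains, so it is no support for shared control. Whether the miR-7a-5p and miR-7b-5p probes each also capture the other strand was not tested.

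The scanner software also writes 1 signal per miRNA, and for some of these strands it contained, on some arrays, the total of another miRNA. On 14 occasions, over all 7 strands and 19 arrays, a detected strand's software signal differed from the sum of its own probe totals by over 1%. None of these was of miR-7a-2-3p or miR-7b-5p, and the share over all miRNAs is not given here. On all 14 the signal equalled the total of 1 of its own probes, or of both, plus the whole total of 1 other miRNA on the array, within 2e-05 of its value. On 9 muscle arrays the software signal of miR-7a-5p contained the total of miR-7a-1-3p, as in the EDL of mouse 225, where it read 71.9 against probe totals of 15.8 and a miR-7a-1-3p total of 60.2. In the nucleus accumbens of high-active mice 224, 227 and 225 the miR-375-3p signals of 102.5, 97.7 and 101.2 contained miR-374c-5p totals of 94.8, 88.8 and 91.2, while its own probe totals summed to 13.4, 14.0 and 15.6. On the nucleus accumbens array of mouse 197 the miR-7b-3p signal of 2463 contained the 2456 of miR-7a-5p. Spot intensities, which do not pass through that step, were therefore used throughout.

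**Figure D4:**
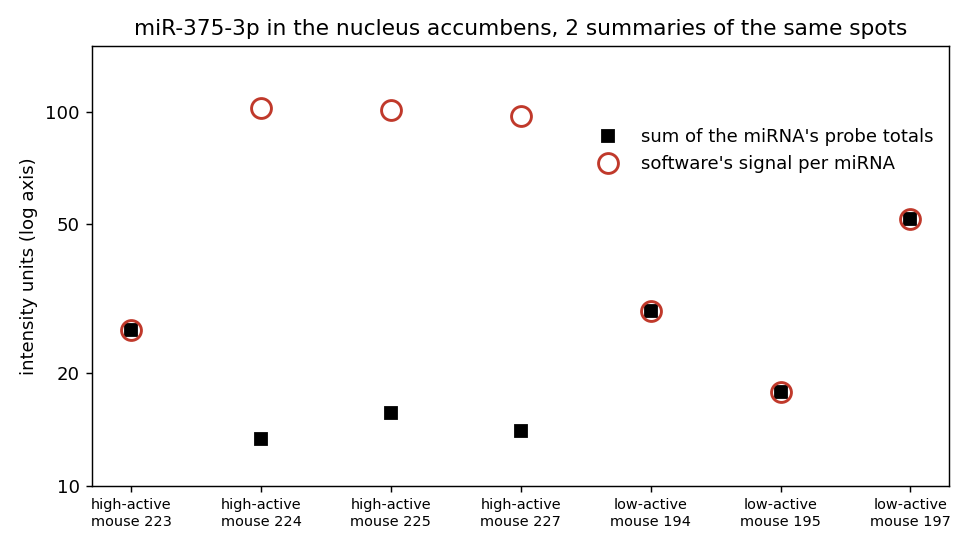
Intensity of miR-375-3p (vertical axis, log scale, arbitrary fluorescence units, before scaling) on the 7 nucleus accumbens arrays, as the software's signal per miRNA (red circles) and as the sum of its probe totals (black squares). They coincide in mice 223, 194, 195 and 197, and the software's signal is 102.5, 101.2 and 97.7 against sums of 13.4, 15.6 and 14.0 in mice 224, 225 and 227.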

How the data were processed

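Single-dye Agilent miRNA arrays were read from the deposited scanner files, whose spot intensities the authors' Feature Extraction 10.7.1.1 software had background-subtracted without normalization between arrays. A deposited value sheet for the series holds log2 values that the authors normalized, whose scale and centring are not known, and which served only as an alternative. Control and outlier spots were left out, saturated spots kept, and a probe's processed intensities averaged. Arrays were scaled by the 75th percentile over probes detected on all arrays of a fit (594 nucleus accumbens, 456 soleus, 417 EDL, 328 over all 19), given a floor (over arrays, the median of each one's lowest detected signal), and taken to log2. The brighter probe stood for a miRNA. Software was limma 3.58.1, R 4.3.3, version 1.17.8 of data.table, jsonlite 2.0.0, Python 3.11.15, pandas 2.3.3 and matplotlib 3.10.9.

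Strains were compared within a tissue (lmFit and eBayes, Benjamini-Hochberg correction) over mouse miRNAs detected on at least 3 nucleus accumbens, 2 soleus or 2 EDL arrays, and tissues over all 19 arrays with mouse as a random block (correlation 0.0952), which pairs tissues of 1 animal by its label, over miRNAs detected on at least 3. Each mouse gave 1 array per tissue, so p-values cover the spread between mice and arrays. Members and lists were chosen with earlier results of these data known. The text names all 7 members, each list's count and 2 brightest measured miRNAs, and the 3 nearest profiles of 3 strands. miR-9-5p, miR-137-3p, miR-138-5p, miR-142-3p, miR-183-5p, miR-133a-3p, miR-203-3p, miR-205-5p and, in the software's signals, miR-374c-5p and miR-767 were named after their values were seen. The bounds, written "at least", set the bright mean against the lowest detected signal of each dim array. The tests were checked on simulated data. Alternatives were other scalings, floors, filters, probe summaries, background correction (normexp, on median signals since mean signals were not used here), slide and mouse as blocks, and each array left out.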

Additional observations from a re-analysis of the deposited data

Results flagged for a closer look

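In the nucleus accumbens miR-7a-5p of high-active mouse 227, at 10.05, stood apart from the other 3 high-active mice, the nearest of which had 11.04, with a gap of 0.935 of the group's range. The same mouse was lowest of its group for miR-7a-2-3p (5.37) and miR-7b-5p (8.87), whose gaps of 0.632 and 0.629 of the range were within what the test for a lone extreme value allows. In the EDL miR-7a-1-3p of low-active mouse 195, at 5.19 and not well above background, stood apart from the other 3 low-active mice, the nearest at 6.08, with a gap of 0.986 of the range. That array was the dimmest of the 19. By chance about 1 in 20 groups passes the limit of that test, and more groups were screened than those named here. The strain difference of miR-7a-1-3p was 0.87 higher in EDL than in soleus, with opposite signs in the 2 muscles; across miRNAs the adjusted p was 0.395 (limma), and without the EDL array of mouse 195 the EDL difference of 0.47 fell to 0.08.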

How the results depend on the processing

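The median strain difference in the nucleus accumbens over 5 strands, -1.11, was -0.73 without scaling, -0.77 with normexp, -0.82 with the software's signal, -0.71 within slide 2, -1.39 within slide 3, -1.17 to -0.82 leaving out each array, and -0.71 without mice 227 and 197 (chosen after seeing the data). miR-7a-5p, miR-7a-1-3p, miR-7a-2-3p and miR-7b-5p kept their sign in 20 of 20 alternatives and miR-375-3p in 19, turning to 0.92 with the software's signal, which holds another miRNA's total. In soleus 0 strands passed, and 2 without scaling (miR-7a-5p -0.71, miR-7a-1-3p -1.03, limma adjusted p = 0.0261 and 0.0380). Signs turned for miR-7a-5p in soleus (0.0703 with the percentile over all probes, 0.24 with normexp, -0.34 to 0.00102 leaving out each array, highest without low-active mouse 194) and EDL (0.0177 with all probes, 1.26 with the software's signal, 1.09 with the deposited table, 0.37 within slide 1, -0.37 to 0.0107 leaving out each array, highest without low-active mouse 197), and for miR-7a-1-3p in soleus (0.24 with normexp) and EDL (-0.29 with the software's signal). In EDL the software's signals held other miRNAs' totals. For miR-7a-1-3p in mouse 195 it read 62.6 against own probe totals of 10.2, and contained 55.5 of miR-767. For miR-7a-5p it contained the miR-7a-1-3p total on the EDL arrays of mice 225, 196, 194 and 227, and mouse 195 was not detected by the software. Why the signs turned was not tested. The tissue counts of 5 were 4 to 6 over 33 alternatives each, but normexp shrank the differences from soleus and EDL to 4.61 and 4.43 (miR-7a-5p), 1.41 and 0.99 (miR-7a-1-3p), 3.21 and 3.12 (miR-7b-5p) and 0.75 and 0.68 (miR-7a-2-3p). They were 5 with no replicate block and 5 with mouse as a fixed, paired replicate block, which changed no call. miR-375-3p lost its tissue calls with normexp (0.21 and 0.155) and in high-active mice only. Values near the floor, as for miR-375-3p in high-active mice and miR-7b-3p, are limited by signal over background.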
